A study of Mus musculus with 40 samples.

Results

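The genes described here are the monoamine oxidases Maoa and Maob and the organic cation carriers Slc22a3 and Slc29a4. They were chosen by their known roles and make up 4 of the 40213 gene symbols in the count tables. Their RNA was measured in 40 mRNA libraries from male C57BL/6N mice of 8 weeks. Each tissue, midbrain or spinal cord, had 20 libraries, which is 4 for each of 5 groups. Con mice received no MPTP and had saline injected at GB34, an acupoint of the hind limb. All other mice received 4 intraperitoneal injections of MPTP at 20 mg/kg, 2 h apart. MPTP-Veh mice then had saline at GB34. MPTP-SU mice were given SUEHP, a herbal pharmacopuncture extract, at GB34 in 4 injections that began a week after MPTP. MPTP-SU+S mice received SUEHP and 3 mg/kg of a CB1 antagonist, spelled SR141714A in the sample labels and SR141716A in the paper. MPTP-SU+T mice received SUEHP and 5 mg/kg of the PPARγ inhibitor T0070907. No group received SUEHP or an inhibitor without MPTP.

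Monoamine oxidases are flavoenzymes of the outer mitochondrial membrane that deaminate dopamine, noradrenaline and serotonin. MAO-B, which in the brain is found mainly in astrocytes and serotonergic neurons, oxidizes MPTP on the way to MPP+, the cation that poisons complex I of dopaminergic neurons. MAO-A prefers serotonin and noradrenaline. MPP+ and monoamines that escape the high-affinity transporters are carried by low-affinity, high-capacity uptake systems. Slc22a3 encodes the organic cation transporter OCT3, and Slc29a4 encodes the plasma membrane monoamine transporter PMAT, a relative of the nucleoside transporters.

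The start-site sequences of Maoa and Slc29a4 are shown because the transcripts of these genes lie near opposite ends of the range of GC content, a property with which treatment differences moved in both tissues. The sequences are the 250 bases before the start from RefSeq (build GRCm38.p6, which is not the build of the count tables). The window of Slc29a4 is chr5:142701851-142702100 on the plus strand and that of Maoa is chrX:16619448-16619697 on the plus strand. Capitals mark the GC box GGGCGG on either strand (CCGCCC on the other), with overlapping copies counted.
Slc29a4: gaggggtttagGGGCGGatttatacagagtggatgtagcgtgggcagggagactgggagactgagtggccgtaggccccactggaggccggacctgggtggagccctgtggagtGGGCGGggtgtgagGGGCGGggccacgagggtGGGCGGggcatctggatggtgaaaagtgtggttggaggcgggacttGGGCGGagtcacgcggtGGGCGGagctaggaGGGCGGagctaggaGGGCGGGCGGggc
Maoa: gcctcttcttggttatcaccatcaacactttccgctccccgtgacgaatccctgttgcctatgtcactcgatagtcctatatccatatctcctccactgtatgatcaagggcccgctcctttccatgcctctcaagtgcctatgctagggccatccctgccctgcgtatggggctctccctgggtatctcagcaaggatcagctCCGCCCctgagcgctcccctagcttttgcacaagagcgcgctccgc
The Slc29a4 window was 68.8% G and C and held 9 GC boxes, a number reached by 0.0731% of the 32851 promoters of the table. The Maoa window was 56.8% G and C and held 1 GC box, and 32.7% of all windows of this length held at least 1. The Slc22a3 window had 51.2% G and C and no GC box, and the median over all promoters was 52.4%. A sequence was found for 3 of the 4 genes. In the transcripts the share was 60.1% G and C in Slc29a4, 52.0% in Slc22a3, 45.3% in Maob and 40.4% in Maoa. Among the midbrain genes tested, 95.1% had a GC content at or below that of Slc29a4 and 6.08% at or below that of Maoa. In the same annotation Maoa and Maob are neighbours on chromosome X. Slc22a3 lies beside Slc22a2 on chromosome 17 and overlaps Gm3192 and C030013G03Rik, and Slc29a4 on chromosome 5 overlaps Gm40352. Whether the counting used strand is not given in the sources used here, so reads from these overlapping genes cannot be told apart from those of the carriers.

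Midbrain libraries held 11958200 to 16639823 estimated counts, and spinal cord libraries held 14642808 to 16615378. The tissue labels went with their markers, in that 5 midbrain genes summed to between 36.9 and 144 CPM (counts scaled to the library total) in midbrain libraries and between 4.30 and 7.02 CPM in the spinal cord, while 5 Hox genes summed to at most 0.470 CPM in the midbrain and at least 365 CPM in the spinal cord. The library of MPTP-Veh replicate 4 in the midbrain stood apart, with 1.35% mitochondrially encoded counts against 9.92% or more in the other midbrain libraries, and a rank correlation of 0.888 with the median of the others against 0.987 or more. Counts from 9 liver genes, a list chosen after their values were seen, also divided the midbrain libraries. They numbered 175 to 418 in Con and 212 to 2698 in MPTP-Veh, but 20 to 44 in every library of the groups given SUEHP. All 20 spinal cord libraries held 197 to 604. In the midbrain this division falls together with SUEHP, so whatever produced it cannot be told apart from the treatment in any comparison of a SUEHP group with MPTP-Veh or Con. The labels number the replicates without naming animals, and p-values measure only the spread between these libraries, which may be technical. In bulk tissue, fewer cells of a type and less RNA per cell cannot be told apart.

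**Figure D1:**
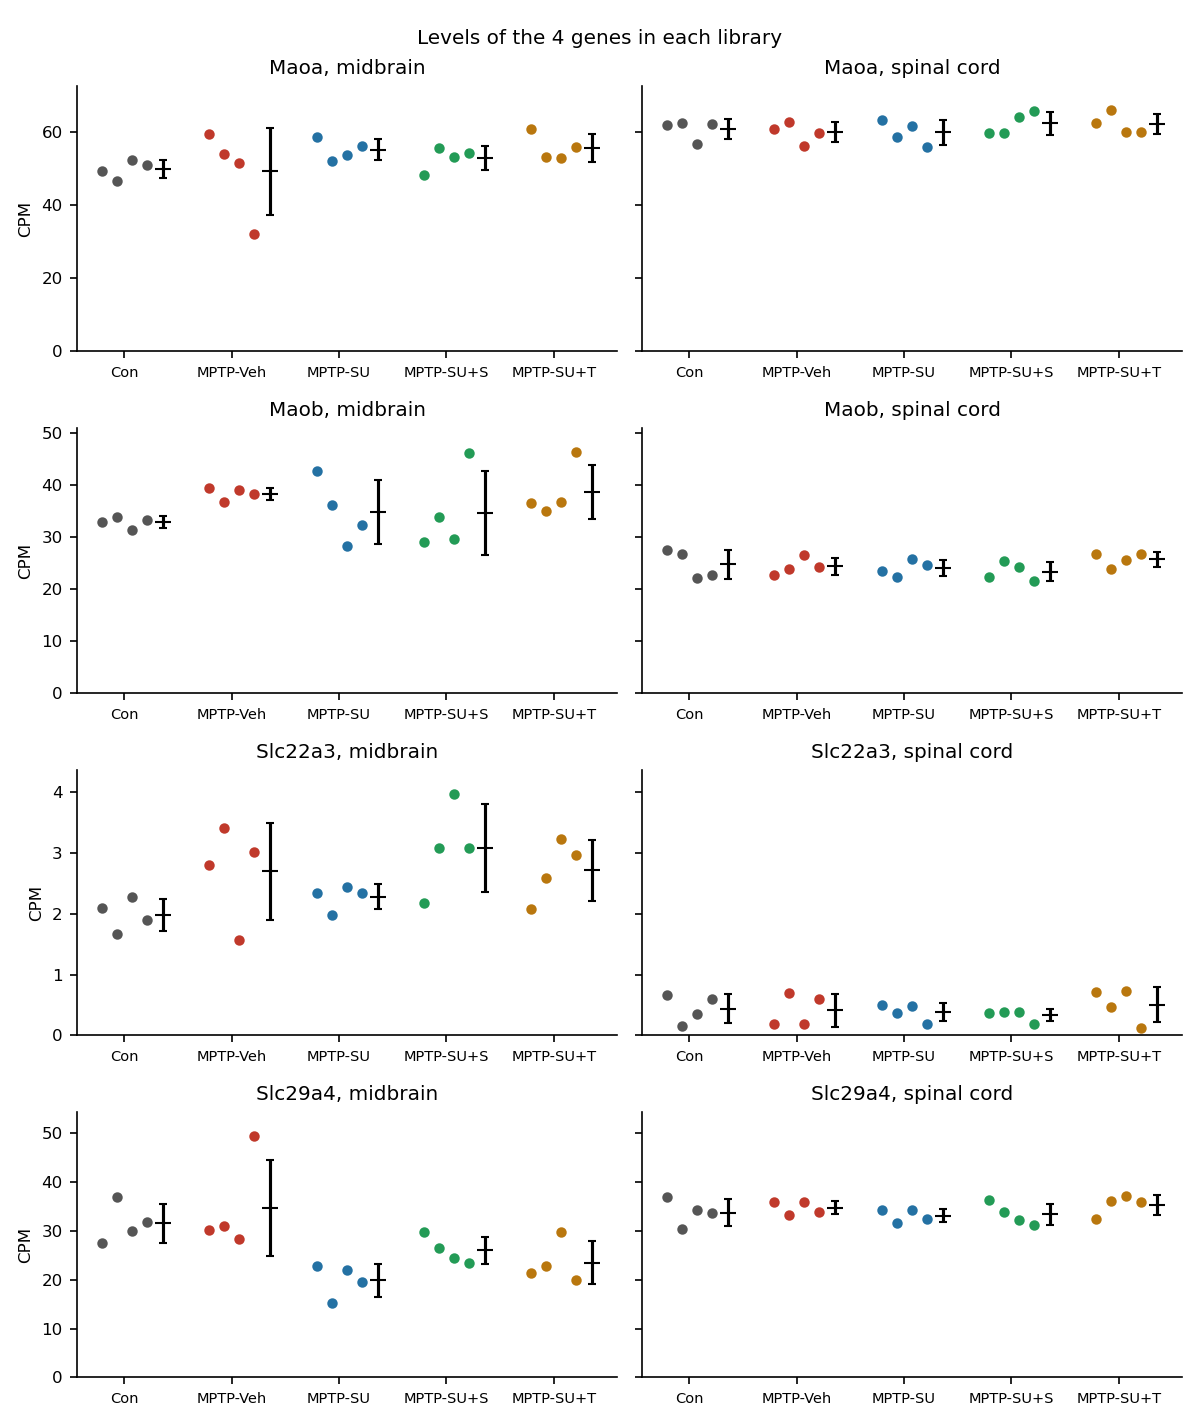
Level of each gene in each library, in CPM with trimmed-mean (TMM) library sizes, by group; points are the 4 libraries of a group in order of replicate number, and the bar beside them is the mean with its SD. The 4 midbrain MPTP-SU libraries of Slc29a4 lie between 15.2 and 22.8 CPM, below all Con and MPTP-Veh libraries, and the spinal cord groups of the same gene all lie between 30.3 and 37.1 CPM.

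Levels were first compared between genes in Con, as CPM per kilobase of the longest protein-coding transcript. In the midbrain, Maob was highest at 13.7 ± 0.449 CPM per kilobase (SD, n = 4), followed by Maoa at 12.0 ± 0.592, Slc29a4 at 11.3 ± 1.43 and Slc22a3 at 0.569 ± 0.0748. The ranges of Maob and Maoa did not overlap, whereas those of Maoa and Slc29a4 did. The order of the oxidases rests on the lengths used, 4167 bases for Maoa and 2411 for Maob. In CPM, Maoa was higher, at 50.0 against 33.1. The SDs hold no error of length or of GC content. In the spinal cord the order was Maoa at 14.5 ± 0.643 CPM per kilobase, Slc29a4 at 12.0 ± 0.881, Maob at 10.2 ± 1.09 and Slc22a3 at 0.125 ± 0.0666. There the ranges of Slc29a4 and Maob overlapped. In both tissues the oxidase genes and Slc29a4 lay close together, and Slc22a3 lay far below them. All 4 genes passed the filter on low counts in both tissues, but Slc22a3 had 26 to 60 counts per midbrain library and only 2 to 12 per spinal cord library.

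The enzyme genes were examined first, to ask whether MPTP or SUEHP changed the RNA of the proteins that handle the toxin. Tissue was taken at the end of the experiment, so these levels do not show how the toxin was handled when it was given. In the midbrain, Maob gave 33.0, 34.0, 31.5 and 33.4 CPM in the Con libraries and 39.4, 36.8, 39.2 and 38.3 CPM in the MPTP-Veh libraries. The MPTP-Veh values were all higher than the Con values, and both groups were tight. The fitted difference was 1.17-fold (log2 fold change 0.22, SE 0.143), and it did not pass edgeR's quasi-likelihood test (adjusted p = 0.332). On its own, the exact permutation test gave p = 0.0286, the smallest it can give at 4 against 4. Of all midbrain genes, 12.4% did not overlap between these groups. None of the 4 genes was called in this comparison at an adjusted p below 0.05 and a fold above 1.5, where 0.018% of the 16629 genes were. At an unadjusted p below 0.05, which 23.7% of genes reached, the count was also 0. It was 0 by limma-voom and DESeq2 at the called criteria, where 0% and 2.6% of all genes were called. It was also 0 without MPTP-Veh replicate 3, where 1093 genes (6.47%) were called in place of 3.

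In the groups that received SUEHP, Maob spread more widely in the midbrain. It was 42.9, 36.2, 28.3 and 32.4 CPM in MPTP-SU, 29.1, 33.9, 29.6 and 46.3 CPM in MPTP-SU+S and 36.6, 35.2, 36.8 and 46.4 CPM in MPTP-SU+T. These values overlapped with one another and with the MPTP-Veh values. The log2 fold change of MPTP-SU against MPTP-Veh was -0.14 with a 95% interval of -0.44 to 0.16 (adjusted p = 0.483), so a fall beyond 0.739-fold or a rise beyond 1.12-fold lay outside it. Adding the CB1 antagonist moved Maob by -0.0090 (SE 0.143) and adding the PPARγ inhibitor by 0.15 (SE 0.142) on the log2 scale. Neither passed (both adjusted p = 1). Against Con, the MPTP-SU+T values were again all higher, by 1.18-fold (adjusted p = 0.640), in a comparison where 13.3% of genes did not overlap.

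Maoa in the midbrain lay between 46.6 and 60.8 CPM in 19 of the 20 libraries. The exception was MPTP-Veh replicate 4 at 32.1 CPM, beside 59.4, 54.0 and 51.5 CPM in the other MPTP-Veh libraries. The mean was 49.8 ± 2.48 CPM for Con and 49.3 ± 11.9 CPM for MPTP-Veh (SD, n = 4). With SUEHP it was 55.2 ± 2.86 CPM alone, 52.9 ± 3.20 CPM with the CB1 antagonist and 55.7 ± 3.72 CPM with T0070907. The MPTP-SU+T values were all higher than the Con values, by 1.12-fold (adjusted p = 0.765), as were those of Maob, in the comparison where 13.3% of genes did not overlap. MPTP-Veh spread most and no main comparison passed, with log2 fold changes from -0.060 to 0.16. The sign of the Maoa difference between MPTP-SU and MPTP-Veh depended on the treatment of GC content, at 0.16 as fitted (adjusted p = 0.359) and -0.27 after the trend with GC and length was removed (adjusted p = 0.0634).

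In the spinal cord both oxidases varied less among libraries. Maoa ranged from 55.8 to 66.0 CPM over the 20 libraries, a coefficient of variation (CV) of 4.62%, against 11.4% in the midbrain and 6.78% there without MPTP-Veh replicate 4. Maob ranged from 21.6 to 27.5 CPM, a CV of 7.49%, against 14.2% in the midbrain. The 95% intervals of the 4 main comparisons kept Maoa within 0.912-fold to 1.12-fold and Maob within 0.868-fold to 1.19-fold.

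Because Maoa and Maob lie side by side and their products share substrates, the ratio of their counts was followed in each library. In the midbrain there were 0.527 to 1.19 Maob counts per Maoa count, with a median of 0.667. In the spinal cord there were 0.328 to 0.474, with a median of 0.399. The ranges of the tissues did not overlap, and the highest midbrain value belonged to MPTP-Veh replicate 4. No treatment comparison separated the ratio in either tissue. The exact permutation p-values of the 8 comparisons were 0.171 or more before adjustment and 0.800 or more after it. Across the 20 libraries of a tissue, which differ in depth and composition, Maoa and Maob correlated at r = 0.11 (rho = 0.33) in the midbrain and r = -0.12 (rho = -0.041) in the spinal cord. Without the 2 libraries farthest from the median of Maoa, the midbrain r was 0.46 and that of the spinal cord 0.025, so the low midbrain value rests on those libraries.

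Slc22a3, the OCT3 gene, was the least expressed. In the midbrain it gave 2.10, 1.67, 2.27 and 1.90 CPM in Con, 2.80, 3.40, 1.57 and 3.01 in MPTP-Veh, and 2.35, 1.98, 2.44 and 2.35 in MPTP-SU. MPTP-SU+S gave 2.19, 3.07, 3.97 and 3.08 CPM and MPTP-SU+T gave 2.08, 2.58, 3.23 and 2.96 CPM. The groups overlapped, and each of the MPTP means lay above that of Con. The largest difference in any pair was that of MPTP-SU+S against Con, at 1.55-fold (95% interval 1.10 to 2.17, adjusted p = 0.232). MPTP-Veh against Con stood at 1.35-fold (0.959 to 1.90, adjusted p = 0.260). In the spinal cord its level was 0.124 to 0.727 CPM, with groups that overlapped throughout, and the 95% intervals of the main comparisons ran from 0.394-fold to 2.68-fold.

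Among the 4 genes and all pairs of groups, the largest treatment difference was that of Slc29a4, the PMAT gene, in the midbrain. It gave 27.6, 36.9, 29.9 and 31.8 CPM in Con and 30.3, 31.0, 28.3 and 49.4 CPM in MPTP-Veh. In MPTP-SU it gave 22.8, 15.2, 21.9 and 19.6 CPM. Every MPTP-SU library was below every Con and MPTP-Veh library. Compared to MPTP-Veh, Slc29a4 fell to 0.573-fold in MPTP-SU (95% interval 0.443 to 0.742), or -0.80 on the log2 scale with an SE of 0.178 (edgeR, adjusted p = 0.0104). The call was lost with the GC and length trend removed from each library, at -0.38 (adjusted p = 0.0688), where 9.18% of all genes were called. A fit of the 8 libraries of the comparison alone also lost it, at -0.82 (adjusted p = 0.223), where no gene was called. As fitted, Slc29a4 was the only one of the 4 genes called in this comparison, and the only one with an unadjusted p below 0.05, which 39.8% of all genes had. In the same comparison 13.5% of all genes were called, 9.1% lower and 4.35% higher, and 21.9% did not overlap between the groups. Of all genes tested, 9.77% had a log2 fold change as low or lower. It was also the only one of the 4 that differed among the 5 midbrain groups (adjusted p = 0.0355, against 0.268 to 0.698 for the others, where 7.1% of genes passed). That call was lost under limma-voom, with replicate number as a block, and without any of several single libraries, among them each MPTP-SU library.

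With the inhibitors, Slc29a4 gave 29.8, 26.6, 24.4 and 23.5 CPM in MPTP-SU+S and 21.3, 22.8, 29.8 and 19.9 CPM in MPTP-SU+T. The means rose in the order MPTP-SU at 19.9 ± 3.41 CPM, MPTP-SU+T at 23.5 ± 4.38, MPTP-SU+S at 26.0 ± 2.80, Con at 31.5 ± 3.95 and MPTP-Veh at 34.7 ± 9.85 (SD, n = 4). Each group in this order overlapped with the next. The place of MPTP-Veh above Con rests on its replicate 4, whose 49.4 CPM stand beside 28.3 to 31.0 CPM in its other libraries. MPTP-SU+S did not overlap with MPTP-SU and stood at 1.31-fold of it (95% interval 1.01 to 1.70, unadjusted p = 0.0404, adjusted p = 1), and MPTP-SU+T stood at 1.18-fold (0.913 to 1.53, adjusted p = 1). No gene of the 16629 was called in either inhibitor comparison (percent called 0), by edgeR, and 2.15% and 1.96% of genes did not overlap. None of the 4 genes was called there by limma-voom or DESeq2, which called at most 0.00601% of all genes in either comparison. Among the 4 genes, the count at an unadjusted p below 0.05 was 1 with the CB1 antagonist (Slc29a4, where 1.65% of all genes had such a p) and 0 with the PPARγ inhibitor (1.7% of all genes).

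In the remaining pairs of midbrain groups Slc29a4 did not pass both criteria. Against Con, MPTP-SU was at 0.631-fold (adjusted p = 0.0674, where 0.764% of genes were called and 19.6% did not overlap), MPTP-SU+S at 0.826-fold (adjusted p = 0.576, 0.704% called) and MPTP-SU+T at 0.745-fold (adjusted p = 0.404, 0.156% called). Against MPTP-Veh, MPTP-SU+S was at 0.751-fold (adjusted p = 0.117, 5.66% called) and MPTP-SU+T at 0.678-fold (adjusted p = 0.0579, 3.8% called). These comparisons share their Con or MPTP-Veh libraries. Between the inhibitor groups, MPTP-SU+T stood at 0.902-fold of MPTP-SU+S (adjusted p = 1, 0% called). MPTP by itself left the gene at 1.10-fold of Con (95% interval 0.853 to 1.42, adjusted p = 0.627), or 0.14 on the log2 scale, which turned to -0.080 without MPTP-Veh replicate 4 and to -0.12 with the GC and length trend removed, neither called.

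**Figure D2:**
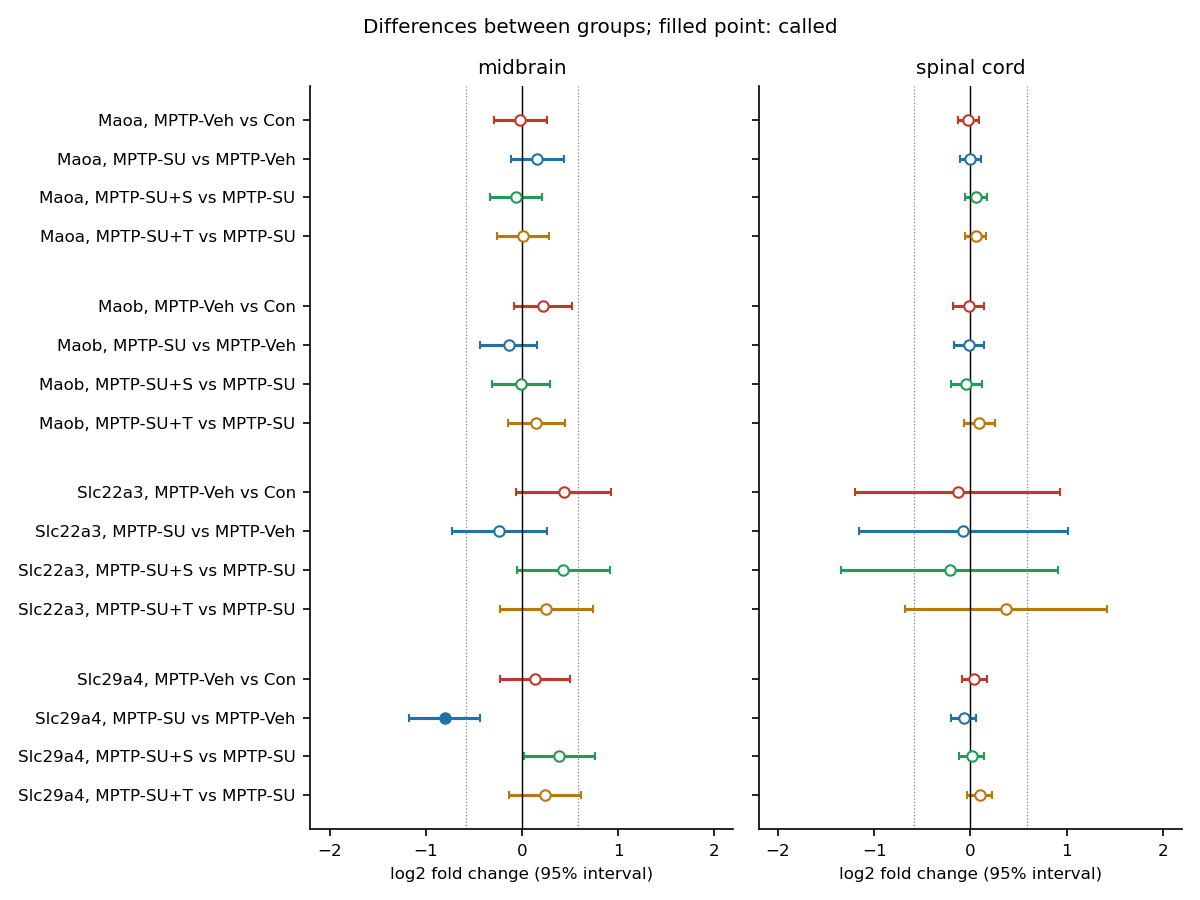
Log2 fold change of each gene in the 4 main comparisons of each tissue, with 95% intervals; dotted lines mark 1.5-fold, and a filled point passed both criteria. The filled point is Slc29a4 in midbrain MPTP-SU against MPTP-Veh at -0.80; of the other intervals, that of Slc29a4 in midbrain MPTP-SU+S against MPTP-SU (0.019 to 0.76) leaves out 0 and the rest hold it.

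Several measurements moved with the Slc29a4 difference, and the counts of markers called stand against 9.1% of all genes called lower and 4.35% higher in this comparison. The outlying library MPTP-Veh replicate 4 held its highest value. Leaving that library out gave -0.59 on the log2 scale, at the 1.5-fold limit and still called (adjusted p = 0.0107). Across the 15252 midbrain genes with a known GC content, the log2 fold changes of MPTP-SU against MPTP-Veh fell with GC (Spearman rho = -0.53, over genes, which are not independent), and those of MPTP-Veh against Con rose with it (rho = 0.43). Over 15332 genes in the spinal cord, rho was -0.23 for MPTP-Veh against Con, -0.052 for MPTP-SU against MPTP-Veh, and -0.31 and 0.46 for adding the CB1 antagonist and the PPARγ inhibitor. A list of 5 long nuclear RNAs, among them Malat1, summed to 8198 to 14352 CPM in MPTP-Veh and 5802 to 7528 CPM in MPTP-SU, with 3 of 5 called lower. Serotonergic neuron markers, whose cells express Maob, summed to 73.9 to 289 CPM in MPTP-Veh and 29.4 to 103 CPM in MPTP-SU, with 2 of 5 called lower and none of the 5 at 0. Markers of the midbrain region summed to 41.2 to 119 CPM and 36.9 to 144 CPM in the same groups, with 2 of 5 called lower and a median of -0.89. Microglial markers summed to 113 to 234 CPM (median 124) and 120 to 143 CPM (median 120), with 2 of 5 called lower. Red blood cell markers summed to 241 to 2529 CPM (median 335) and 290 to 342 CPM (median 315), with 2 of 5 called lower and 1 higher. In both lists the medians lay close together and the MPTP-Veh maximum lay apart. Without MPTP-Veh replicate 4, 572 of all genes were called in place of 2237, and whether the marker calls hold there was not tested. The lists for oligodendrocytes, hypothalamus and mitochondrially encoded RNA had 1 gene each called lower. Positive differences, none called, were seen in 2 of 5 oligodendrocyte genes (median -0.13), 2 of 3 hypothalamus genes tested (median 2.17) and 12 of 13 mitochondrially encoded genes (median 0.35). The lists for dopaminergic neurons, endothelium, mural cells, leptomeningeal fibroblasts, choroid plexus and ependyma had 0 called. Astrocyte markers, whose cells also express Maob, summed to 2458 to 2872 CPM in MPTP-Veh and 2513 to 2924 CPM in MPTP-SU, none at 0. Of these 7 genes, 3 were called lower, among them Gfap, the filament protein of reactive astrocytes. Gfap stood at -1.03 on the log2 scale (adjusted p = 0.0429), though its groups overlapped. Its MPTP-Veh libraries averaged 441 CPM with an SD of 354, more than the gap to the MPTP-SU mean of 215 ± 70.8. Set against Con (313 ± 47.0 CPM), Gfap after SUEHP alone was not called (-0.54, adjusted p = 0.462). The other 4 genes had positive differences that were not called, among them the water channel gene Aqp4 (0.84, adjusted p = 0.0783). The list median was 0.19. The part of these changes in the Slc29a4 difference was not tested.

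**Figure D3:**
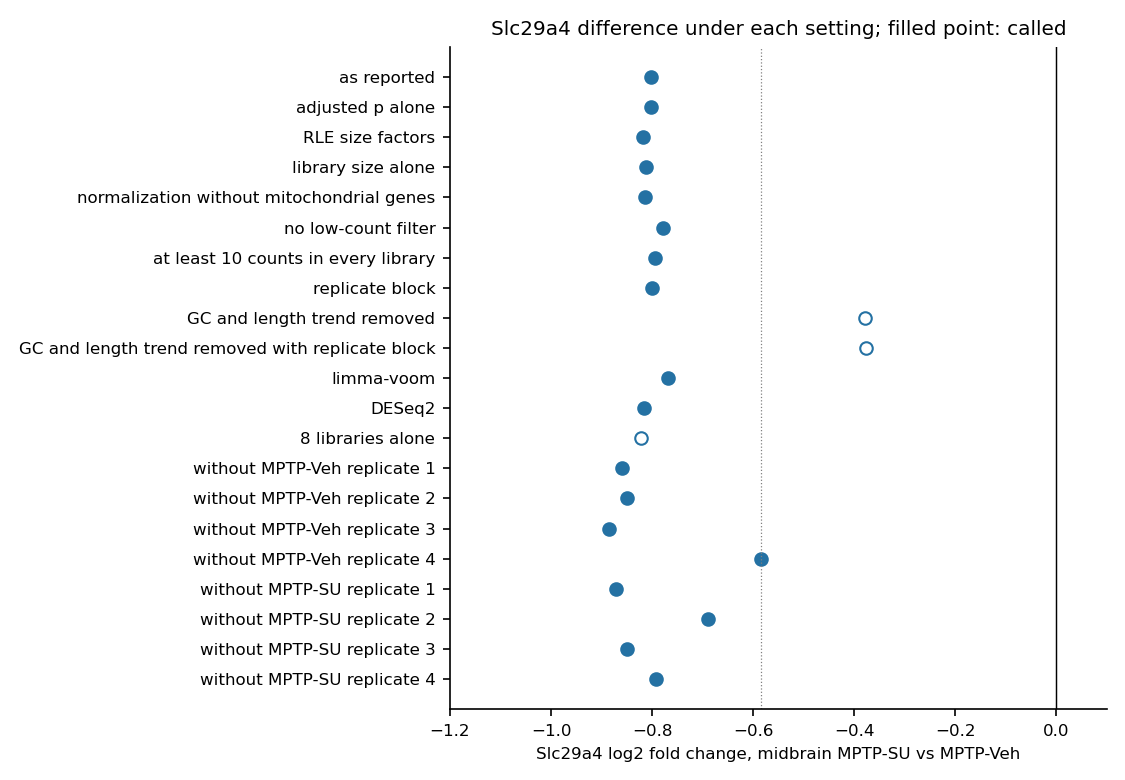
Log2 fold change of Slc29a4 in midbrain MPTP-SU against MPTP-Veh under each setting of the analysis; the dotted line marks 1.5-fold, and filled points were called. Values lie between -0.89 and -0.38, and the 3 open points are both fits with the GC and length trend removed and the fit of 8 libraries.

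In the spinal cord no such difference of Slc29a4 was detected. It gave 35.9, 33.3, 35.9 and 34.0 CPM in MPTP-Veh and 34.2, 31.5, 34.4 and 32.4 CPM in MPTP-SU, groups that overlapped. MPTP-SU stood at 0.953-fold of MPTP-Veh there, with a 95% interval of 0.869 to 1.04 (adjusted p = 0.999). The midbrain difference was lower than the spinal cord difference by 0.72 on the log2 scale (-0.72, SE 0.187, adjusted p = 0.0104), in a test that 16.8% of 17426 genes passed (3.12% in MPTP-Veh against Con and 0% in either inhibitor comparison). None of the other 15 tests of this kind over the 4 genes and 4 comparisons passed, with adjusted p-values of 0.354 or more. With the GC and length trend removed, the difference between tissues was -0.33 for Slc29a4 (adjusted p = 0.129). In that fit 1 other test passed, that of Maoa in MPTP-Veh against Con, at 0.37 on the log2 scale (adjusted p = 0.0367), which stood at -0.0062 as fitted (adjusted p = 0.984). The share of all genes that passed in that fit is not given here, so this pass cannot be set against it.

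Across all 4 spinal cord main comparisons, none of the 4 genes was called by edgeR, limma-voom or DESeq2, and none reached an unadjusted p below 0.05, which 12.8%, 3.81%, 5.49% and 12.1% of all genes did. The share of all 16682 genes called there by edgeR was 0% in MPTP-Veh against Con, in MPTP-SU against MPTP-Veh and in MPTP-SU+S against MPTP-SU, and 0.024% in MPTP-SU+T against MPTP-SU. With limma-voom or DESeq2 it was at most 0.024% in these comparisons. In the other pairs of spinal cord groups the edgeR share was 0% to 0.12% (0.03% and 0.00599% for MPTP-SU+S and MPTP-SU+T against Con), again with none of the 4 genes. None differed among the 5 spinal cord groups (adjusted p from 0.737 to 0.921, where 0.15% of genes passed). Over the 20 libraries the CVs of Maoa, Maob and Slc29a4 were 4.62% to 7.49%, while that of Slc22a3 was 48.8%.

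The tissues themselves were compared within each group in a single fit of all 40 libraries. In Con, Slc22a3 was 4.42-fold higher in the midbrain than in the spinal cord, at 1.99 ± 0.262 against 0.437 ± 0.233 CPM (SD, n = 4; log2 fold 2.15, SE 0.372, adjusted p = 2.33e-05). It was the only one of the 4 genes called, where 16.4% of genes were called. The difference was called in each of the 5 groups, at 4.42-fold to 9.12-fold, where 16.4%, 31.6%, 20.2%, 18.5% and 19.4% of genes were called in the order in which the groups were introduced. No midbrain library was as low as any spinal cord library of its group, and 37.3%, 39.8%, 40.1%, 41.3% and 37.9% of genes did not overlap. Maob was higher in the midbrain at 33.1 ± 1.08 against 24.6 ± 2.62 CPM, a 1.34-fold difference (adjusted p = 0.00440) below the 1.5-fold criterion. By adjusted p alone, 29.8% of genes passed in Con and 51.6% in MPTP-Veh, and after SUEHP 35.7% passed without an inhibitor, 34.3% with the CB1 antagonist and 34.7% with the PPARγ inhibitor. In the other groups Maob was 1.45-fold to 1.57-fold higher, and called in MPTP-Veh and MPTP-SU+T. The call in MPTP-SU+T was lost without midbrain replicate 4 (1.41-fold) or spinal cord replicate 2 (1.48-fold). Calls were gained in MPTP-SU+S without midbrain replicate 1, 2 or 3 or spinal cord replicate 2 or 3 (1.51-fold to 1.57-fold). In MPTP-SU a call was gained without midbrain replicate 3 (1.56-fold). Maoa was lower in the midbrain, at 50.0 ± 2.47 against 60.4 ± 2.68 CPM or 0.828-fold (adjusted p = 0.0368), which did not pass with library size alone (adjusted p = 0.153), with no low-count filter (0.0627), or without midbrain Con replicate 2 (0.0764) or spinal cord Con replicate 2 or 4 (0.0551 and 0.0533). In MPTP-Veh Maoa was at 0.824-fold (adjusted p = 0.0199) in groups that overlapped, and without midbrain replicate 4 it was at 0.916-fold and did not pass (adjusted p = 0.113). In the groups given SUEHP it was at 0.853-fold to 0.926-fold and did not pass (adjusted p = 0.0739 to 0.413). The oxidases leaned opposite ways between the tissues in Con.

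No tissue difference of Slc29a4 was detected in Con, at 0.943-fold (95% interval -0.35 to 0.18 on the log2 scale), or in MPTP-Veh, at 0.996-fold and, without midbrain replicate 4, at 0.858-fold (adjusted p = 0.108). In MPTP-SU it was 0.603-fold in the midbrain (adjusted p = 4.46e-05, called, where 20.2% of genes were). In MPTP-SU+S and MPTP-SU+T it was 0.784-fold (adjusted p = 0.0367) and 0.670-fold (adjusted p = 0.000755), neither past 1.5-fold. Leaving out 1 library of the group kept the call in MPTP-SU (0.579-fold to 0.656-fold). In MPTP-SU+S the adjusted p was 0.0559 to 0.117 without any 1 library other than midbrain replicate 1 or spinal cord replicate 4, and in MPTP-SU+T the gene was called without midbrain replicate 3 (0.610-fold) or spinal cord replicate 1 (0.652-fold). These contrasts use the midbrain libraries described above and are not independent of the treatment result.

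**Figure D4:**
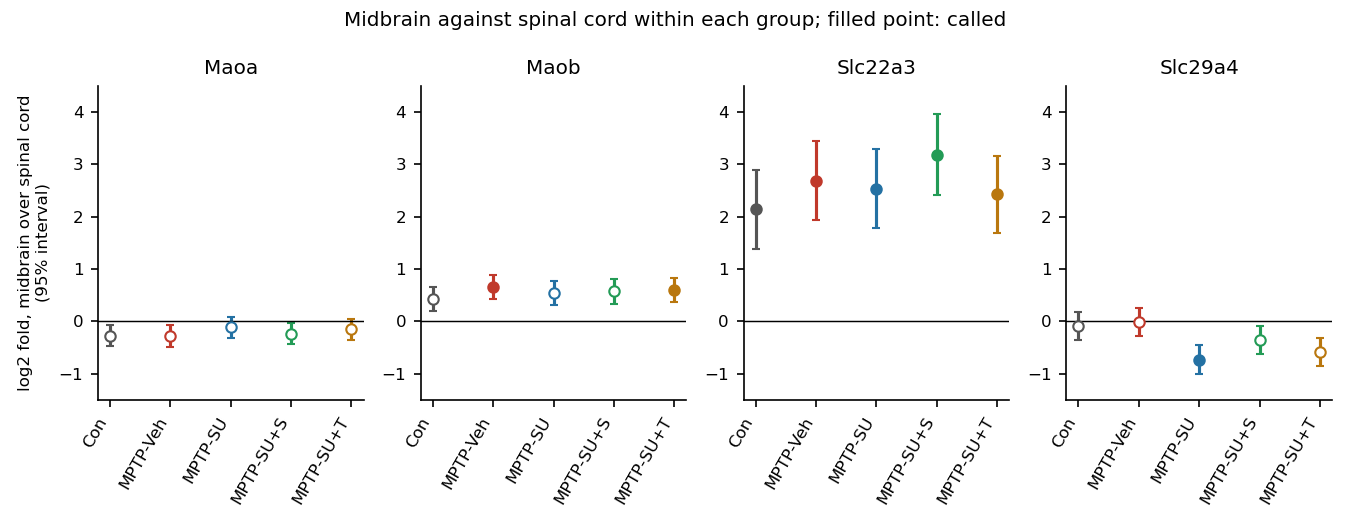
Log2 fold of midbrain over spinal cord for each gene within each group, with 95% intervals; filled points passed an adjusted p below 0.05 and 1.5-fold. Slc22a3 is higher in the midbrain in all 5 groups, by 2.15 to 3.19 on the log2 scale, and Slc29a4 lies near 0 in Con and MPTP-Veh and at -0.73 in MPTP-SU.

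To place the 4 genes among others of the pathway, 44 further genes in 4 lists were followed, of which the filter passed 39 for the midbrain and 35 for the spinal cord. Cyp2e1, described further on, passed the filter only through Con and MPTP-Veh and is left out of the counts for the midbrain. Of the other 38, 1 was called higher and 2 lower in midbrain MPTP-SU against MPTP-Veh, or 7.89%, where 4.35% and 9.1% of all genes were. Of 12 monoamine breakdown genes, 2 were lower. Sult1a1, a sulfotransferase for phenols and catechols, averaged 12.4 ± 4.69 CPM over the MPTP-Veh libraries and 7.31 ± 0.819 CPM over those of MPTP-SU, groups that overlapped, a difference of -0.76 on the log2 scale (SE 0.223, adjusted p = 0.0276). Akr1a1, an aldehyde reductase, went from 274 ± 144 to 176 ± 11.3 CPM (-0.64, SE 0.208, adjusted p = 0.0402), with an SD in MPTP-Veh larger than the difference and a Con mean of 177 ± 4.47 CPM. Without MPTP-Veh replicate 4 neither passed, at -0.50 for Sult1a1 (adjusted p = 0.0843) and -0.20 for Akr1a1 (adjusted p = 0.0525). Akr1a1 was not called with the GC and length trend removed either (-0.24, adjusted p = 0.143), nor was Sult1a1 or Akr1a1 without any 1 of the MPTP-SU libraries. The median log2 fold change of the list was -0.030 against 0.00069 over all genes.

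Of 14 carrier genes tested of 17 listed, 1 was called. Slc29a1, the equilibrative nucleoside transporter ENT1 and a relative of PMAT, went from 18.2 ± 2.44 CPM in MPTP-Veh to 29.1 ± 7.35 in MPTP-SU (log2 fold change 0.67, SE 0.197, adjusted p = 0.0275), the direction opposite to Slc29a4. Its call was lost without MPTP-Veh replicate 1, MPTP-SU replicate 3 or MPTP-SU replicate 4, at 0.54 to 0.60 (adjusted p = 0.0502 to 0.0703). The median of this list was 0.039. Slc6a3, the dopamine transporter through which MPP+ enters dopaminergic neurons, was 79.1 ± 27.7 CPM in Con and 64.5 ± 35.2 CPM in MPTP-Veh, and MPTP-SU differed from the latter by 0.12 on the log2 scale (SE 0.492). Slc18a2, the vesicular transporter that sequesters MPP+, was 45.0 ± 12.6, 51.9 ± 15.4 and 49.7 ± 12.5 CPM in Con, MPTP-Veh and MPTP-SU. Slc22a2, which encodes OCT2, was low in the same groups, at 0.775 ± 0.332, 1.36 ± 0.867 and 0.391 ± 0.307 CPM. None of these passed in either step.

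None of the 8 monoamine synthesis genes tested was called, and their median log2 fold change was -0.55. Th, the rate-limiting enzyme of dopamine synthesis, was 47.6 ± 14.9 CPM in Con, 64.3 ± 38.1 in MPTP-Veh and 43.7 ± 24.3 in MPTP-SU, and neither step passed (adjusted p = 0.539 and 0.351). Of the oxidizing enzymes outside the monoamine oxidases, 0 of 4 were called beside Cyp2e1. Cyp2e1 was 4.98 ± 7.25 CPM in MPTP-Veh against 0.121 ± 0.127 CPM in MPTP-SU. The MPTP-Veh libraries gave 2.33, 0.981, 0.783 and 15.8 CPM, the last in replicate 4. The difference is a description with no test, since Cyp2e1 is itself one of the 9 liver genes that divided the midbrain libraries, with 13 to 23 counts in Con, 13 to 168 in MPTP-Veh and 0 to 6 with SUEHP. Cyp2d22, the mouse relative of the human enzyme CYP2D6, was 31.5 ± 1.60, 29.1 ± 1.59 and 30.1 ± 1.62 CPM in Con, MPTP-Veh and MPTP-SU. No pathway gene was called in MPTP-Veh against Con, in either inhibitor comparison or in a main comparison of the spinal cord. Few or no genes were called there at all. The shares of all genes were 0.018% in midbrain MPTP-Veh against Con, 0% in either midbrain inhibitor comparison and 0% to 0.024% in the spinal cord.

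**Figure D5:**
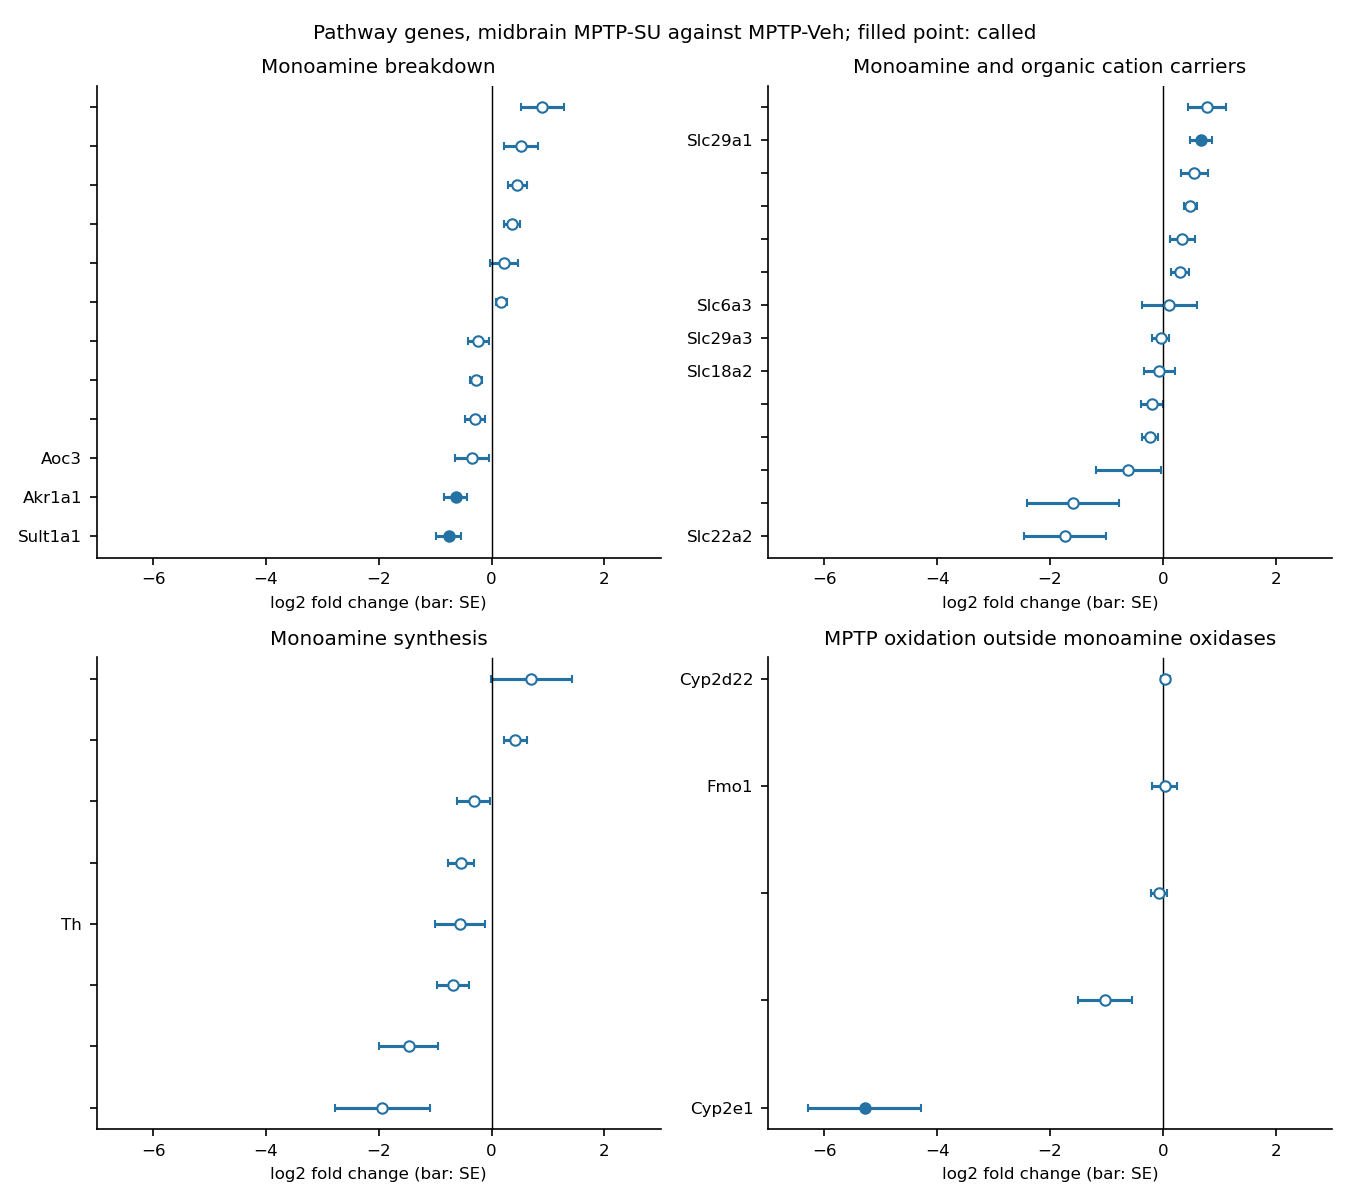
Log2 fold change of the tested pathway genes in midbrain MPTP-SU against MPTP-Veh, by list, with SE bars; filled points passed both criteria, and the points of genes named in the text carry their symbols. Slc29a1 is filled on the higher side and Sult1a1 and Akr1a1 on the lower side. Cyp2e1, beside them, passed the filter on low counts only through Con and MPTP-Veh, so its point and bar are a description with no test.

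Between tissues in Con, 9 of the 35 pathway genes that passed the filter in both tissues were higher in the midbrain and 1 was lower, where 7.39% and 9.02% of all genes were. Of the synthesis genes, 5 of 8 were higher, among them Th at 47.8 against 3.58 CPM. Of the carriers, 2 of 10 were higher, among them Slc29a1 at 19.5 against 11.2 CPM, and Slc29a3 was lower at 30.6 against 47.3 CPM. Slc6a3, at 79.4 against 0.136 CPM, and Slc18a2, at 45.1 against 0.116 CPM, passed the filter only through the midbrain, so that they had to differ, and are not counted. Of the breakdown genes, only Aoc3 of 12 was higher, at 3.32 against 0.935 CPM, and of the 5 oxidizing enzymes only Fmo1, a flavin monooxygenase, at 9.79 against 5.70 CPM. The breakdown list had a median log2 fold of 0.070 against 0.019 over all genes, the oxidizing enzymes a median of -0.30, and the synthesis list a median of 1.78.

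Finally, the genes whose levels followed each of the 4 most closely were named by the lower of the Pearson correlations over the 20 midbrain and the 20 spinal cord libraries, as a description. Slc29a4 was followed by Nucb1 (midbrain r = 0.90, spinal cord r = 0.80), Mbd6 (0.85 and 0.79) and Atn1 (0.78 in both). The GC content of their transcripts was 52.7% for Nucb1, 63.1% for Mbd6 and 62.0% for Atn1. Maoa was followed by Pdha1 (r = 0.78 and 0.70), Cobll1 (0.84 and 0.63) and Jmy (0.88 and 0.63), but without the 2 libraries farthest from the median the midbrain values were 0.27, 0.044 and 0.36. Maob and Slc22a3 had no close follower, with 0.50 for Stx3 and 0.45 for Col24a1 at the head of their lists. Maoa and Slc29a4 themselves ran opposite in the midbrain at r = -0.68 (rho = -0.55), and at -0.40 without the 2 farthest libraries. In the spinal cord the value was -0.17. All of these share the depth and the composition of their libraries.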

How the data were processed

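RNA of midbrain and spinal cord was sequenced as poly(A)-selected paired-end libraries (CORALL RNA-Seq V2, Illumina NovaSeq). Per the paper's methods, fastp trimmed and filtered the reads, STAR aligned them, Salmon quantified transcripts, and counts were scaled by TMM and CPM. The submitters' processing notes also name GATK, with no role, and the GRCm39 build, and the tool versions are not given in the sources used here. The annotation, the strand setting and any use of molecular identifiers are not given in the sources used here. The authors deposited estimated counts for 40213 gene symbols, already in whole numbers. These counts were tested per tissue over 20 libraries with edgeR 4.0.16 (filterByExpr, TMM, quasi-likelihood test, R 4.3.3), with Benjamini-Hochberg adjustment over all genes tested. A gene was called at an adjusted p below 0.05 and a fold above 1.5. Tissues and interactions were compared in 1 fit of 40 libraries, whose CPM differ slightly from those of the single-tissue fits. Log2 CPM were computed with a prior count of 2. Single values were tested by two-sided exact permutation tests, whose smallest p at 4 against 4 is 0.0286. Alternatives used limma 3.58.1, DESeq2 1.42.0 and, for the trend with GC content and length, mgcv 1.9.3, with transcript lengths and GC from GENCODE M21. Scripts were tested on simulated data. The 4 genes and the lists were chosen with earlier results of these data known. Named pathway genes are those called in a main comparison plus Th, Slc6a3, Slc18a2, Slc22a2 and Cyp2d22 (some genes of the rule are not reported here), and the 3 genes most like each of the 4. Slc29a3, Aoc3, Fmo1, Gfap and Aqp4 were named after their values were seen.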

Additional observations from a re-analysis of the deposited data

Results flagged for a closer look

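Each of the 4 genes was examined in each group of 4 libraries of each tissue, which makes 40 sets of 4 values. In 4 of these sets 1 library lay far from the other 3, where chance gives about 1 in 20. Maoa in the spinal cord was 56.9 CPM in Con replicate 3 against 61.8 to 62.4 CPM in the others. Maob in the midbrain was 46.4 CPM in MPTP-SU+T replicate 4 against 35.2 to 36.8 CPM. Slc22a3 in the spinal cord was 0.191 CPM in MPTP-SU+S replicate 4 against 0.364 to 0.387 CPM, values that rest on few counts. Slc29a4 in the midbrain was 49.4 CPM in MPTP-Veh replicate 4 against 28.3 to 31.0 CPM, and this is the library with the low mitochondrial share. The difference of MPTP-SU from MPTP-Veh in Slc29a4 was lower in the midbrain than in the spinal cord by 0.72 on the log2 scale (-0.72, adjusted p = 0.0104, edgeR), and leaving out any 1 midbrain MPTP-Veh or MPTP-SU library kept the adjusted p at 0.0342 or below. With the GC and length trend removed it was -0.33 (adjusted p = 0.129) and no longer passed.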

How the results depend on the processing

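The midbrain Slc29a4 difference between MPTP-SU and MPTP-Veh was negative in every alternative run. It was called with other size factors, filters, limma-voom, DESeq2 and replicate number as a block (-0.80, adjusted p = 0.0202), and without each library in turn (-0.89 to -0.59, adjusted p = 0.00536 to 0.0408). It was not called with the GC and length trend removed (-0.38, adjusted p = 0.0688), with that and the replicate block (-0.38, adjusted p = 0.0559), or in the 8 libraries alone (-0.82, adjusted p = 0.223). In these fits 0 of the 4 genes were called, where 9.18%, 8.35% and 0% of all genes were, and the cause was not tested. The call among the 5 midbrain groups was lost with the replicate block and limma-voom (0 of 4 genes) and without any 1 of 11 of the 20 libraries, namely Con replicates 2 and 4, all MPTP-SU replicates, MPTP-SU+S replicates 2 to 4 and MPTP-SU+T replicates 1 and 2 (0 to 1 genes over all 20). Same-numbered libraries of midbrain MPTP-SU and MPTP-Veh correlated at -0.071 to 0.26 and are not known to pair. Of all genes, 2237 were called in that comparison as fitted, 572 without MPTP-Veh replicate 4, 618 without MPTP-SU replicate 2, 3543 without MPTP-Veh replicate 3 and 0 in the 8 libraries alone. In midbrain MPTP-Veh against Con, 432 genes were called in DESeq2 and 1093 without MPTP-Veh replicate 3, against 3 as fitted. Of the calls in MPTP-SU against MPTP-Veh, 32.4% were higher as fitted, 15.9% with library size alone and 49.5% with limma-voom. Directions that turned were all of values not called as fitted. With the GC and length trend removed, without and with the block, midbrain MPTP-Veh against Con became 0.28 and 0.27 for Maoa and -0.12 and -0.13 for Slc29a4, midbrain MPTP-SU against MPTP-Veh became -0.27 in both for Maoa (adjusted p = 0.0634 and 0.0445), spinal cord MPTP-SU+S against MPTP-SU became -0.0013 and -0.0012 for Maoa, and MPTP-SU+T against MPTP-SU became -0.0096 and -0.0091 for Slc29a4. With library size alone, MPTP-SU+S against MPTP-SU became 0.013 for Maoa and 0.067 for Maob in the midbrain and -0.0052 for Slc29a4 in the spinal cord. Spinal cord MPTP-SU against MPTP-Veh became 0.00035 (RLE size factors), 0.0012 (at least 10 counts in every library), 0.00045 (DESeq2) and 0.00064 (8 libraries alone) for Maoa, and 0.076 (limma-voom) for Slc22a3. The Slc29a4 interaction of MPTP-Veh against Con became -0.023 with library size alone and -0.20 with the GC and length trend removed, alternatives chosen after seeing the data. Leaving out 1 library gave ranges that span 0. In midbrain MPTP-Veh against Con they were -0.12 to 0.14 for Maoa and -0.080 to 0.23 for Slc29a4. Maob in midbrain MPTP-SU+S against MPTP-SU ran from -0.18 to 0.10, and Maoa in MPTP-SU+T against MPTP-SU from -0.033 to 0.043. In spinal cord MPTP-Veh against Con they were -0.052 to 0.0087 for Maoa, -0.069 to 0.035 for Maob, -0.50 to 0.12 for Slc22a3 and -0.0012 to 0.085 for Slc29a4. In spinal cord MPTP-SU against MPTP-Veh they were -0.030 to 0.033 for Maoa, -0.051 to 0.029 for Maob and -0.32 to 0.30 for Slc22a3, and Slc29a4 in MPTP-SU+S against MPTP-SU ran from -0.028 to 0.043. The Slc29a4 interaction of MPTP-Veh against Con ran from -0.12 to 0.19, and that of Maoa from -0.086 to 0.16. Of the 16 interactions, 7 turned sign in some alternative, among them Maob in MPTP-SU+S against MPTP-SU (-0.061 to 0.14 without 1 library) and in MPTP-SU+T against MPTP-SU (-0.035 to 0.16). The log2 ratio of Maob to Maoa ran from -0.092 to 0.12 in midbrain MPTP-SU+S against MPTP-SU, and from -0.071 to 0.045 and -0.061 to 0.058 in spinal cord MPTP-Veh against Con and MPTP-SU against MPTP-Veh. Depth limits Slc22a3, with 2 to 12 counts per spinal cord library.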
